A study of Mus musculus with 12 samples.

Results

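The 8 genes described here encode enzymes that make arginine or use it: Ass1 and Asl (arginine synthesis), Oat (ornithine to glutamate and proline), Gatm and Gamt (creatine synthesis), Odc1 (polyamine synthesis), and Nos2 and Nos3 (nitric oxide synthases). They were chosen by gene symbol, with earlier results of these data known, from the 37681 genes of the deposited count table. All 8 passed the filter on low counts and were tested among 19399 genes. RNAseq was performed on kidney cortex of 6 male C57BL/6 mice, 18 months old and untreated, with both kidneys of each mouse sequenced as separate libraries. The 3 TG+ mice (43-29, 43-49 and 43-75) carried the TRACK transgene, labelled TRACK/gamma-HIF1alphaM3, a mutant, constitutively active HIF1α driven by a γ-glutamyl transferase promoter in proximal tubule cells. The 3 TG− mice (43-26, 43-50 and 43-76) were littermates without it. The tissue was a thin slice of the outer cortex, so tubules, vessels and interstitial cells were sequenced together. Values are given throughout in this order of mice, TG+ first.

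The kidney is the main site where circulating citrulline is turned into arginine. Proximal tubule cells join citrulline and aspartate with argininosuccinate synthase (Ass1), and argininosuccinate lyase (Asl) splits the product into arginine and fumarate. The same cells hold glycine amidinotransferase (Gatm), which moves the amidino group of arginine onto glycine to make guanidinoacetate, the precursor of creatine, and releases ornithine. Ornithine decarboxylase (Odc1) turns ornithine into the polyamine putrescine and ornithine aminotransferase (Oat) into glutamate semialdehyde. Nitric oxide synthases return arginine to citrulline, with Nos3 best known from endothelium and Nos2 from activated macrophages.

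The promoters of 3 of these genes are shown because the transgene encodes a DNA-binding factor and because the genes differ in outcome: Ass1 was lower in TG+ mice, while Gatm and Odc1 did not differ past the test. RefSeq sequence of assembly GRCm38.p6 was given for 5 of the 8 genes. Each line gives the 250 bases before the RefSeq start, 5′ to 3′ on the gene's strand, with every ACGTG and GCGTG (the core letters of HIF-binding elements) and their reverse complements in capitals. Ass1 lies at chr2:31470020-31470269 on the plus strand, Gatm at chr2:122611278-122611527 on the minus strand and Odc1 at chr12:17544623-17544872 on the plus strand. In GENCODE M21 all 3 genes begin further upstream, inside these windows.
Ass1: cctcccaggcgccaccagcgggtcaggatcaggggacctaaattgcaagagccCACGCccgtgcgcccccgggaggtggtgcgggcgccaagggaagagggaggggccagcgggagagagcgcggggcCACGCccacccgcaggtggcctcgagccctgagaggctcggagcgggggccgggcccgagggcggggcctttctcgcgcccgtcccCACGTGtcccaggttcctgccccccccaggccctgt
Gatm: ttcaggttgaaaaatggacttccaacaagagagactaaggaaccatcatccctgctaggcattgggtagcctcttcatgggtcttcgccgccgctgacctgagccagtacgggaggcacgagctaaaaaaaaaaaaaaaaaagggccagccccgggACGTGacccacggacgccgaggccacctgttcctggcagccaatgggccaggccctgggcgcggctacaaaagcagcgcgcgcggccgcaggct
Odc1: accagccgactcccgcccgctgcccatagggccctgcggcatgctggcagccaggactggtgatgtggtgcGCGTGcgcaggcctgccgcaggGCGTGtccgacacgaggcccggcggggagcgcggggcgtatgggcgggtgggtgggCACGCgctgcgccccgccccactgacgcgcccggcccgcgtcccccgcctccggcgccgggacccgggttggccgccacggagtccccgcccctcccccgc
The Ass1 window held 4 matches, of which the 2 nearest the start overlap in a single palindrome of both strands. This palindrome, at −36 and −35, lies downstream of the Ass1 start in M21, inside the gene. Odc1 held 3, at −179, −157 and −101 from the start, and Gatm held 1, at −94. The Gamt window held 1 match and the Oat window none. Of 32851 mouse promoters of this length, 38.6% held at least 1 match, with ACGTG in 16.6% and GCGTG in 28.2% of all promoters. Ass1 and Odc1 are also rich in G and C (75.6% and 80.0% of the bases, against 59.2% in Gatm). A match of 5 letters describes the sequence and is not a binding site.

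Library totals lay between 21888584 and 27819034 reads in TG+ and between 24963346 and 33704850 in TG−. The kidneys of each mouse differed by more than counting noise, most in 43-49, and their reads were summed so that the mouse was the replicate. Hif1a itself stood at 91.7, 109 and 86.3 in TG+ mice in normalized CPM, the unit of level used below (reads divided by the TMM-adjusted library total) and at 107, 103 and 103 in TG−. The groups overlapped, and whether transgene reads were counted on Hif1a is not given in the sources used here, so this gene does not check the labels. The proximal tubule markers fixed for the tissue, such as Slc34a1 and Lrp2, were high in every mouse, and none of the 11 listed was at 0.

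A gene was called where edgeR's quasi-likelihood test gave a Benjamini-Hochberg adjusted p below 0.01 over all tested genes with a fold change above 2 or below 0.5. By this rule 1 of the 8 enzymes was called, Nos2, which was higher in TG+, beside 3.98% of all tested genes (3.77% higher and 0.211% lower). By the adjusted p alone, 2 were higher (Nos2 and Nos3) and 2 were lower (Ass1 and Asl), beside 7.91% and 4.25% of all tested genes, or 12.2% in both directions. The mice of the 2 groups did not overlap in 5 of the 8 genes, where 44.2% of all tested genes did not overlap. Taken over the 8 genes, the median change was 0.0074 on the log2 scale, beside 0.01 for all tested genes.

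**Figure D1:**
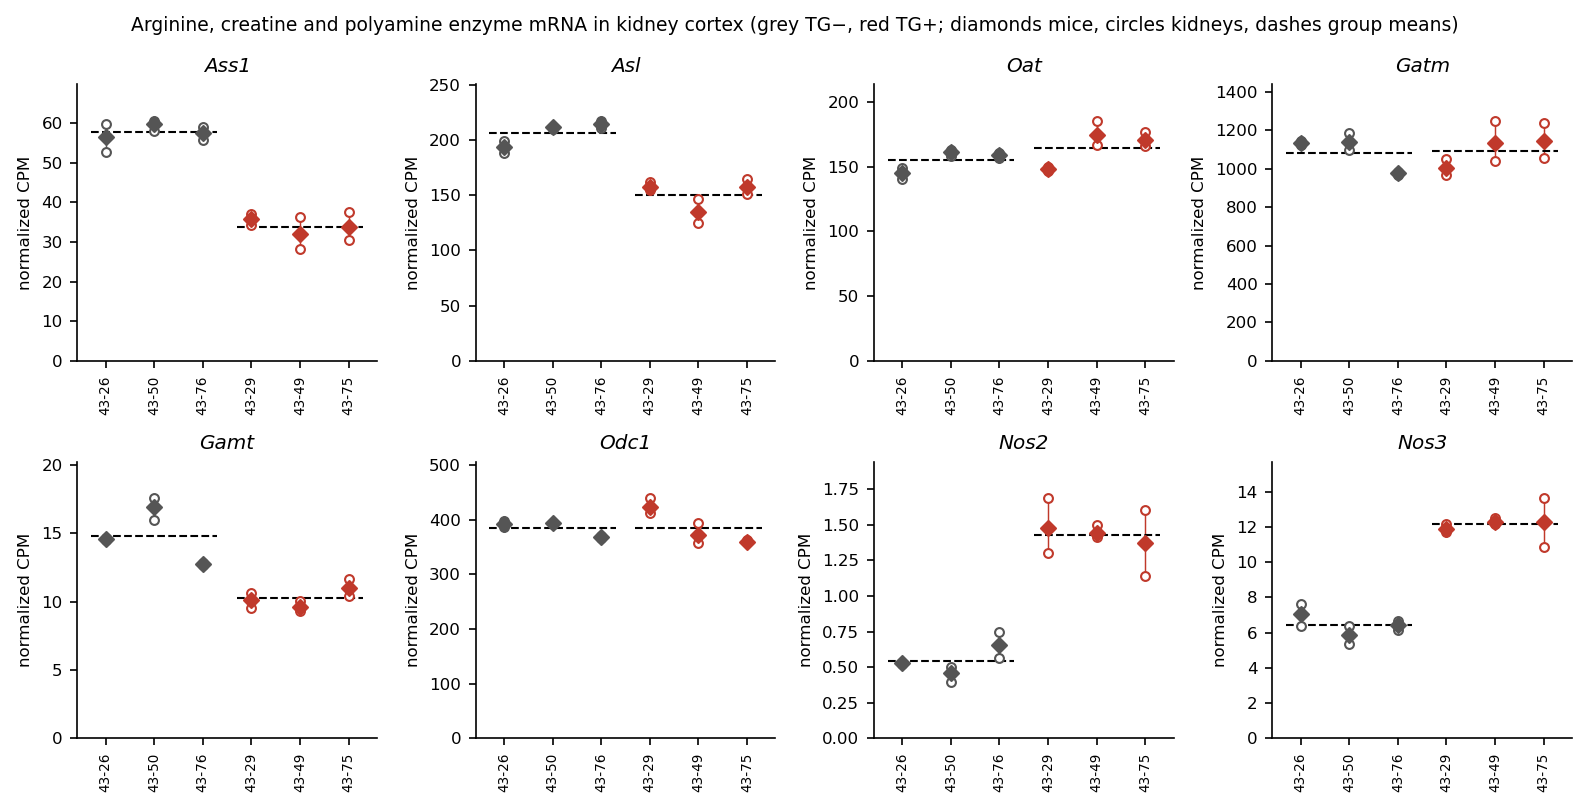
Normalized CPM (vertical axes, linear from 0, each gene on its own scale) of the 8 enzyme genes in each of 6 mice. Open circles are the kidneys, diamonds the mice and dashes the group means. Ass1, Asl and Gamt lie lower and Nos2 and Nos3 higher in all 3 TG+ mice (red) than in all 3 TG− mice (grey).

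Levels can be compared between genes only per length. In the deposited RPKM (reads scaled to gene length and sequencing depth), Gatm was the most abundant in TG− mice at 297 ± 25.8 (SD, n = 3), followed by Odc1 at 85.7 ± 3.13, Oat at 72.7 ± 4.10, Ass1 at 20.7 ± 0.560 and Asl at 17.3 ± 0.921. Gamt followed at 4.55 ± 0.624, Nos3 at 0.838 ± 0.0728 and Nos2 at 0.141 ± 0.0260. No neighbours in this order overlapped between TG− mice. In TG+ mice the RPKM of Odc1 and Oat overlapped, and so did those of Ass1 and Asl. The TG+ means of Odc1 and Oat were 83.8 and 75.4 in RPKM. Per kilobase of M21 exons they were farther apart, at 113 and 69.7 CPM. The order of Ass1 and Asl turned with the length used. The RPKM of Asl were made with a length of 12086 bases, 2.50 times the 4831 bases of its exons in GENCODE M21. Per kilobase of those exons, TG− mice had 42.8 CPM of Asl and 24.0 of Ass1. The lengths behind the RPKM of Gamt and Nos3 were also long, at 2.28 and 1.89 times those of M21. Per kilobase of M21 exons, TG− mice had 10.2 CPM of Gamt and 1.56 of Nos3. Gatm alone took 0.104% of all reads in TG− and 0.114% in TG+ mice.

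Both enzymes of arginine synthesis were lower in TG+ cortex. Ass1 (ENSMUSG00000076441, GRCm38 chr2:31470207-31520672, plus strand), the citrulline-consuming step, stood at 35.8, 31.9 and 33.9 CPM in TG+ and at 56.5, 59.7 and 57.4 in TG− mice. Every TG+ mouse lay below every TG− mouse, and this also held for the single kidneys, from 28.3 to 37.5 CPM against 52.7 to 60.7. Ass1 mRNA was thus at 58.5% of the TG− level, a log2 fold change of −0.77 (SE 0.06, adjusted p = 0.000147 by edgeR's quasi-likelihood test), which passed the adjusted p but not the fold limit. Asl (ENSMUSG00000025533, chr5:130011258-130029247, minus strand), the arginine-releasing step, stood at 158, 135 and 157 CPM against 194, 212 and 215. The groups did not overlap, with 43-49 the lowest. Its log2 fold change was −0.46 (SE 0.08, edgeR adjusted p = 0.00462), or 72.5% of the TG− level. Asl no longer passed when 1 of 3 mice was left out (edgeR adjusted p = 0.0134 without 43-75, 0.0173 without 43-50 and 0.0233 without 43-76) or with kidney 1 alone (0.0123).

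The genes around them were mixed. Of the 12 genes listed for the urea cycle and arginine transport, 9 were tested, 1 was called higher, none was called lower and their median log2 fold change was −0.32, beside 0.01 for all tested genes. By the adjusted p alone, 1 was higher and 2 were lower. The called gene was Slc7a1, the cationic amino acid transporter CAT1 that carries arginine into cells. It stood at 27.2, 35.2 and 25.8 CPM in TG+ and 11.7, 7.44 and 9.01 in TG− mice. The groups were far apart, at 3.14-fold (log2 fold change 1.65, SE 0.18, edgeR adjusted p = 0.000697). The 2 lower genes, named after their values were seen, were Slc7a9, the light chain of the apical cystine and dibasic amino acid transporter (−0.56), and Slc25a15, the mitochondrial ornithine carrier (−0.43). The lowest value was that of Slc25a29, a mitochondrial carrier of basic amino acids, at −0.71, which did not pass (edgeR adjusted p = 0.0182). Otc and Cps1, the mitochondrial enzymes of the hepatic urea cycle, had at most 4 reads in any mouse and were not tested.

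Several markers of the proximal tubule, the site of Ass1 and Asl, were also lower. All 11 were tested, with a median of −0.46, 5 lower by the adjusted p and none higher, and 1 of the 5, the organic anion transporter Slc22a6 (−1.09), called. Fbp1, a gluconeogenic phosphatase, was the highest at 0.01. Their summed level ran from 13472 to 13852 CPM in TG+ and from 19870.5 to 21877 in TG− mice. Slc34a1 (−0.76) was the largest part of this sum, at 5075 CPM on average in TG+ and 8599 in TG−. Ratios to the sum therefore weigh this gene most. Per 1000 reads of these markers, a measure chosen after the values were seen, Ass1 had 2.66, 2.30 and 2.46 reads against 2.78, 2.73 and 2.89. The groups did not overlap, but the highest TG+ and the lowest TG− mouse lay close together. Asl had 11.7, 9.72 and 11.4 against 9.57, 9.67 and 10.8 per 1000, and these overlapped. The part of the marker change in the Asl and Ass1 values was not tested, and in bulk cortex fewer cells of a type and less RNA per cell cannot be told apart.

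Downstream of ornithine, Oat did not differ past the test, while 4 of the 9 enzymes listed around it passed the adjusted p. Oat (ENSMUSG00000030934, chr7:132557478-132576398, minus strand) stood at 148, 175 and 171 CPM against 145, 161 and 159. The groups overlapped, with 43-29 among the TG− values. The log2 fold change was 0.09 (SE 0.08, edgeR adjusted p = 0.452), with an approximate 95% interval from −0.07 to 0.24. M21 places Oat inside the span of Fgfr2 on the same strand, with no exon bases in common. Of the 9 listed enzymes of ornithine, proline and glutamate, 2 were called higher, none was called lower and the median was −0.13. By the adjusted p alone, 2 were higher and 2 lower. Aldh18a1, the synthase that makes glutamate semialdehyde from glutamate and so feeds proline and ornithine, stood at 90.0, 78.3 and 83.6 CPM in TG+ and at 3.94, 2.78 and 3.48 in TG− mice. This was the largest rise in the 5 pathway lists, 24.7-fold (log2 fold change 4.63, SE 0.12, edgeR adjusted p = 1.87e-06). Pycr1, the mitochondrial reductase that completes proline, rose 2.07-fold at a low level (1.46, 1.85 and 1.83 CPM against 0.877, 0.770 and 0.839, edgeR adjusted p = 0.00402). Prodh, which starts proline breakdown, was the lowest of the list at −0.76 (170, 173 and 176 CPM against 286, 287 and 306, edgeR adjusted p = 8.57e-05). The other gene past the adjusted p, named after its values were seen, was Aldh4a1, the next enzyme of proline breakdown (−0.42).

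**Figure D2:**
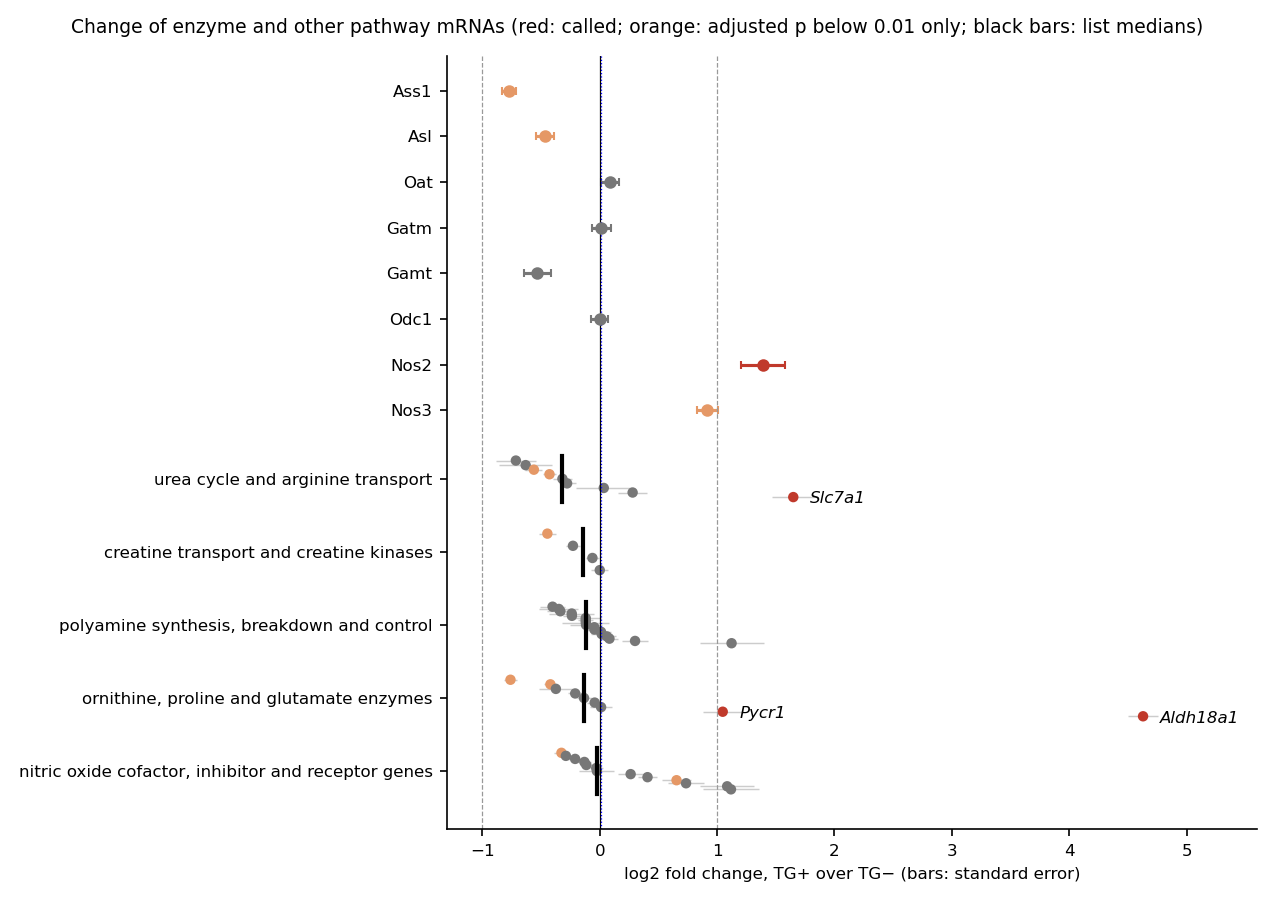
Log2 fold change of TG+ over TG− mice (horizontal axis, bars are standard errors) for the 8 enzymes, each on its own line, and for the tested genes of 5 other pathway lists. Red points were called, orange points passed the adjusted p alone, black bars are list medians, dashed lines mark the fold limits and the dotted line the median of all tested genes. Nos2, Slc7a1, Pycr1 and Aldh18a1 lie among the called genes beyond the upper fold limit, Aldh18a1 farthest at 4.63.

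In creatine synthesis, neither enzyme passed the test. Gatm (ENSMUSG00000027199, chr2:122594467-122611303, minus strand) stood at 1005, 1134 and 1143 CPM in TG+ and at 1136, 1140.15 and 976 in TG− mice. The groups overlapped, and the lowest mouse of all was a TG− mouse. The log2 fold change was 0.01 (SE 0.08, edgeR adjusted p = 0.927), with an approximate 95% interval from −0.15 to 0.17. Gamt (ENSMUSG00000020150, chr10:80258151-80261012, minus strand), the methyltransferase that turns guanidinoacetate into creatine and is best known from liver, stood at 10.1, 9.63 and 11.0 CPM against 14.6, 16.9 and 12.8. The mice did not overlap, nor did the single kidneys, but the log2 fold change of −0.53 (SE 0.11, edgeR adjusted p = 0.0122) did not pass the adjusted p. It passed with DESeq2 (adjusted p = 0.000338), without the filter on low counts (edgeR adjusted p = 0.00708) and with each kidney as its own library (0.000156), a fit that counts the kidneys of a mouse as separate replicates. Per 1000 reads of proximal tubule markers Gamt overlapped between groups, with 0.750, 0.695 and 0.797 reads against 0.720, 0.775 and 0.643. Of the 6 listed creatine transporters and kinases, 4 were tested, none was called and the median was −0.15. Slc16a12, a creatine transporter of the proximal tubule, was the lowest and passed the adjusted p at −0.45 (188, 202 and 210 CPM against 255, 294 and 267, edgeR adjusted p = 0.00380). Ckb, the brain-type creatine kinase, was the highest at 0.00, with 14.5, 16.2 and 14.4 CPM against 15.2, 14.9 and 14.9.

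Polyamine synthesis showed no difference past the test. Odc1 (ENSMUSG00000011179, chr12:17544794-17551505, plus strand), the rate-limiting enzyme and a gene under androgen control in mouse kidney, stood at 424, 373 and 360.3 CPM in TG+ and at 393, 394 and 369 in TG− mice. The groups overlapped, with TG+ mice holding both the highest and the lowest value. The log2 fold change was 0.0018 (SE 0.07, edgeR adjusted p = 0.988), with an approximate 95% interval from −0.14 to 0.14. Of the 18 other polyamine genes, 17 were tested, none was called in either direction, none passed the adjusted p and the median was −0.12. The highest was Aoc1, a diamine oxidase that breaks down putrescine, at 1.12 (12.4, 7.60 and 8.34 CPM against 4.85, 5.38 and 2.70, edgeR adjusted p = 0.0202). The lowest was Sat2, an acetyltransferase related to the spermidine acetylase Sat1, at −0.40 (edgeR adjusted p = 0.0266). Amd1 and Amd2 are near-identical copies whose reads may be shared.

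Odc1 can be set beside the other androgen-responsive kidney genes. Of 8, all tested, 2 were called lower, the cytochromes Cyp4b1 (−1.07) and Cyp2d9 (−1.20), and 3 were lower by the adjusted p. The highest was Adh1, an alcohol dehydrogenase, at 0.23, which did not pass, and the median was −0.34. Kap, the androgen-regulated kidney protein, named after its values were seen, stood at −0.08 (edgeR adjusted p = 0.528). The summed level of the list ran from 18218 to 21644 CPM in TG+ and from 23584 to 24924 in TG− mice. Kap made up most of this sum, at 16181 CPM on average in TG+ and 17074 in TG−. Cyp4b1 stood at 2053 and 4300 CPM on average, so the sum does not describe the list as a whole. The 6 markers of the straight segment of the proximal tubule had a median of −0.10, from Slc7a13, an apical amino acid transporter, at −0.75 to Slc5a1, a glucose transporter, at 0.54, and both of these passed the adjusted p.

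Nos2 and Nos3 were higher in TG+ cortex. Nos2 (ENSMUSG00000020826, chr11:78920787-78960254, plus strand), the inducible form, stood at 1.48, 1.45 and 1.37 CPM in TG+ and 0.526, 0.455 and 0.655 in TG− mice. These are 73, 82 and 69 reads against 27, 26 and 32, so the gene was scarce in every mouse. The groups did not overlap, and neither did the single kidneys (from 1.14 to 1.69 CPM against 0.393 to 0.745). Nos2 rose 2.63-fold (log2 fold change 1.39, SE 0.19, edgeR adjusted p = 0.00180). With kidney 2 alone the value was 1.25 and the edgeR adjusted p was 0.0130. Nos3 (ENSMUSG00000028978, chr5:24364810-24384474, plus strand), the endothelial form, stood at 11.9, 12.3 and 12.3 CPM against 7.04, 5.85 and 6.43. All TG+ mice lay close together and above all TG− mice. The difference of 1.89-fold (log2 fold change 0.92, SE 0.09, edgeR adjusted p = 0.000392) passed the adjusted p and lay just under the fold limit.

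The Nos3 count has neighbours on the opposite strand. In M21, 294 bases (7.12% of the Nos3 exons) lie opposite exons of the autophagy gene Atg9b and 1040 bases (25.2%) opposite the noncoding Gm15587. Atg9b stood at 11.0 CPM on average in TG+ and 0.603 in TG− mice, a log2 fold change of 4.19 (edgeR adjusted p = 1.32e-05), and Gm15587 differed by 0.82 (edgeR adjusted p = 0.00392). Without knowledge of strand, reads of Nos3 and of these genes over the shared bases cannot be told apart.

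Of the 13 genes listed for the cofactor, inhibitors and receptor of nitric oxide, none was called, 1 was higher and 1 lower by the adjusted p, and the median was −0.02. Nos1, the neuronal synthase, stood at 1.84, 2.31 and 2.39 CPM against 2.30, 2.07 and 2.29 and overlapped between groups. The higher gene was Gucy1a1, the α subunit of the nitric oxide receptor guanylate cyclase, at 0.65 (30.6, 40.6 and 42.8 CPM against 22.8, 23.9 and 25.8, edgeR adjusted p = 0.00731), named after its values were seen. The lower gene, and the lowest of the list, was Spr, which completes the cofactor tetrahydrobiopterin, at −0.33 (edgeR adjusted p = 0.00955). Nostrin, an adaptor that binds Nos3, had the highest value, 1.12 (4.61, 3.42 and 4.26 CPM against 2.63, 1.45 and 1.58), and did not pass (edgeR adjusted p = 0.0127).

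Several markers of the cells that are known for these synthases were higher too. All 9 endothelial markers were tested, 7 were higher by the adjusted p and none was called. They ran from Erg (0.39), a transcription factor, to Emcn (0.77), a surface sialomucin, with a median of 0.66 and summed levels from 603 to 644 CPM in TG+ against 355 to 460 in TG−. Of the 12 macrophage markers 11 were tested, 4 were higher by the adjusted p and none was called. They ran from Adgre1 (0.35), the F4/80 antigen, to Retnla (2.70, edgeR adjusted p = 0.0811), with a median of 0.88 and summed levels from 209 to 237 CPM against 120.03 to 159. Per 1000 reads of endothelial markers, Nos3 had 19.8, 19.1 and 19.98 reads in TG+ and 15.3, 16.5 and 16.1 in TG− mice. These Nos3 reads may include some of Atg9b and Gm15587 over the shared bases. Per 1000 reads of macrophage markers, Nos2 had 6.32, 6.90 and 5.80 against 3.31, 3.79 and 4.82. Neither of these ratios, chosen after the values were seen, overlapped between groups, and the part of the marker change in the enzyme values was not tested.

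**Figure D3:**
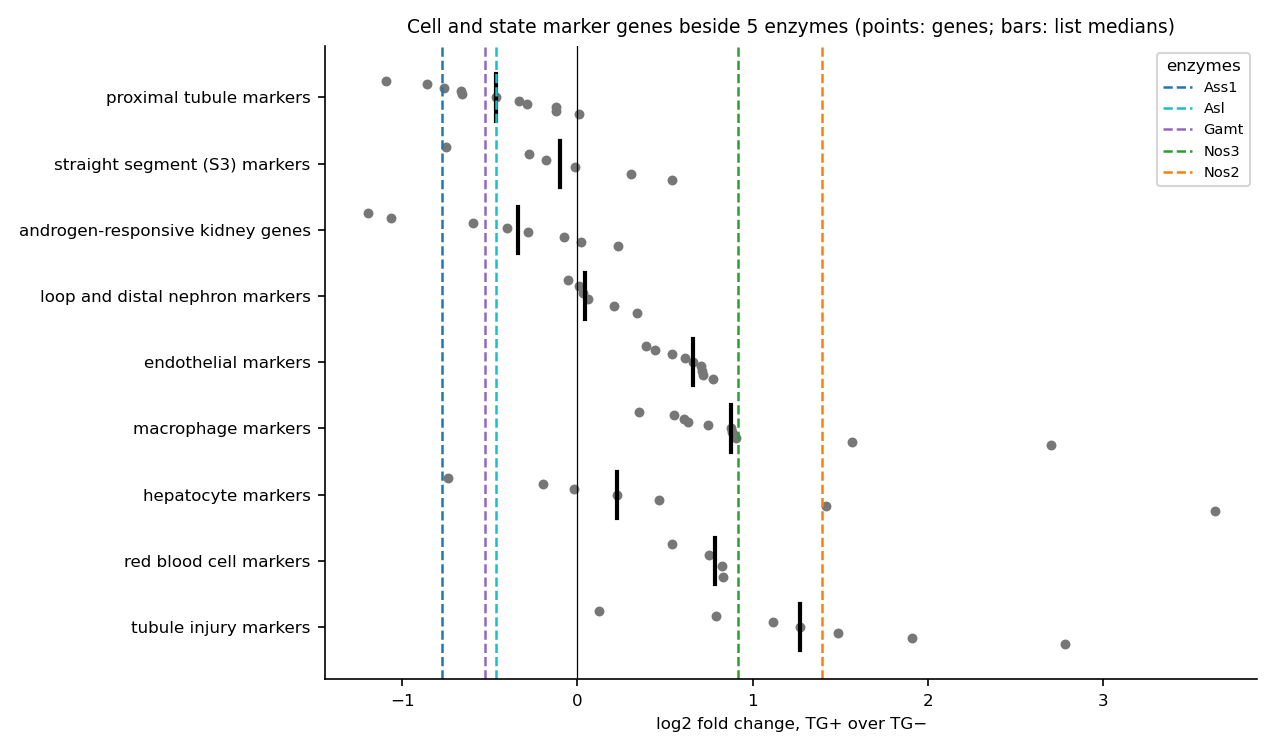
Log2 fold change of TG+ over TG− mice (horizontal axis) for the tested genes of 9 marker lists (points, with black bars for list medians), with dashed lines at the values of Ass1, Asl, Gamt, Nos3 and Nos2. Ass1, Asl and Gamt fall within the range of the proximal tubule markers, whose median is −0.46, and Nos2 within that of the macrophage markers. Nos3, whose exons lie partly opposite those of Atg9b and Gm15587, lies above all 9 endothelial markers.

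Other markers were measured for the same reason. Of the 10 hepatocyte markers, 7 were tested and Cps1, Tat and Ahsg lay near 0. Among the others Apoa1 (3.64), a lipid carrier, and Ttr (1.42), a thyroid hormone carrier, were called higher. Apoa1 was scarce, with 101, 114 and 107 reads in TG+ and 3, 19 and 4 in TG− mice. Cyp2e1, an ethanol-oxidising cytochrome also made in tubules, was the lowest at −0.74. The median of the 7 was 0.23. The 6 loop and distal nephron markers had a median of 0.05, from Slc12a3, the thiazide-sensitive cotransporter, at −0.05 to the water channel Aqp2 at 0.34, and none passed the adjusted p. The 4 red blood cell markers had a median of 0.79 and 3 were higher by the adjusted p, with Hbb-bs the highest at 0.83. The lowest, Hba-a1 at 0.54, did not pass (edgeR adjusted p = 0.307). Both are globin genes with near-identical copies that may share reads. Of the 7 tubule injury markers, 3 were called higher, namely Havcr1 (2.78), Krt19 (1.91) and Cd44 (1.49). The lowest was Spp1 at 0.12 and the median was 1.27.

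Ratios of 2 genes within a mouse do not depend on library scaling. The log2 ratio of Ass1 to Asl reads was −2.14 ± 0.07 (SD, n = 3) in TG+ and −1.84 ± 0.06 in TG− mice, a difference of −0.31, and the mice did not overlap. With kidney 1 alone the difference was −0.44 and with kidney 2 alone −0.18. The ratio of Gatm to Gamt was 6.74 ± 0.13 against 6.20 ± 0.11, or 0.54 higher, also without overlap. Odc1 to Oat overlapped, at 1.23 ± 0.25 against 1.32 ± 0.11. In a 2-sided exact permutation test over the 20 assignments of mice, the first 2 ratios each reached p = 0.1, the smallest this design allows (0.15 after Benjamini-Hochberg adjustment over the 3 ratios), and Odc1 to Oat gave p = 0.6. None of the 3 could therefore pass a threshold of 0.05.

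**Figure D4:**
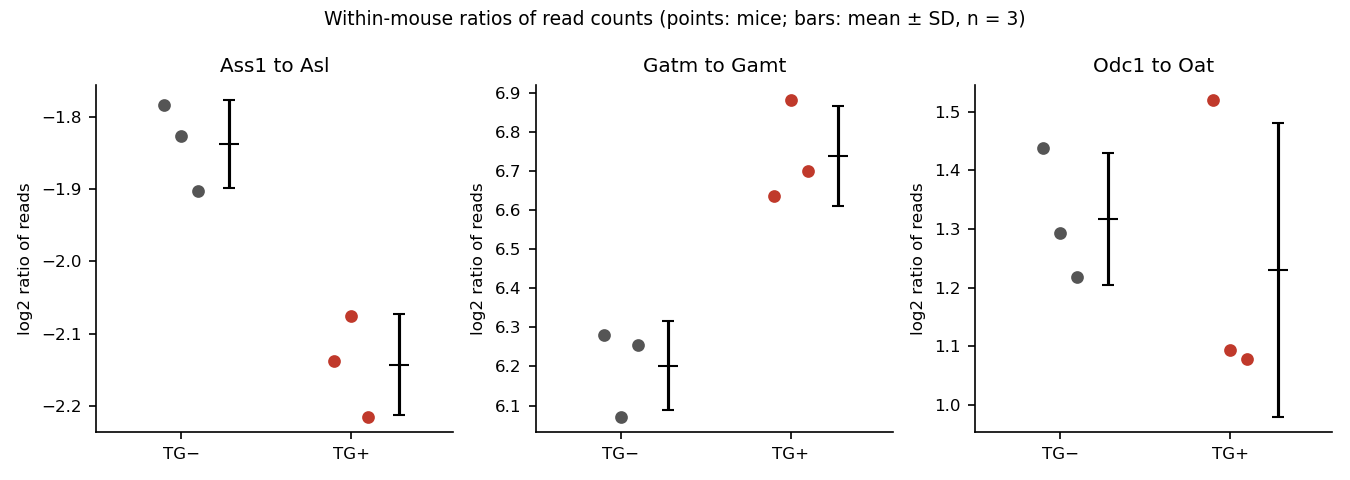
Log2 ratio of read counts within each mouse (vertical axes, each ratio on its own scale, not starting at 0) for 3 pairs of enzymes. Points are mice, and the bars beside them are the mean ± SD of 3 mice. Ass1 to Asl is lower and Gatm to Gamt is higher in every TG+ mouse (red) than in every TG− mouse (grey), while Odc1 to Oat overlaps.

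The genes most like Nos2 and Gatm over the 6 mice were sought among 10181 genes of at least 10 CPM, by the mean absolute difference of gene-centred log2 CPM, as a description. For Nos2 they were H2-Ab1, a chain of MHC class II (0.0445), Plcxd1 (0.0541) and the transcription factor Mef2c (0.0641). The pseudocount of 0.5 CPM shrinks differences of a gene as scarce as Nos2, and these genes had log2 fold changes of 0.93, 0.91 and 0.85, below the 1.39 of Nos2, so they are most like it only on that shrunken scale. For Gatm, the most abundant enzyme, they were Crim1 (0.0177), Kctd9 (0.0240) and Slc8b1 (0.0274).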

How the data were processed

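The authors sequenced mRNA of cortex slices as single-end reads and deposited read counts per Ensembl gene for 12 libraries, without normalization, and RPKM values, made after 1 was added to each count. The genome build is mm9 per the labels, the analysis was done mainly with the Tuxedo tools per the study's methods, and the program that made the counts and its strand handling are not given in the sources used here. Not used were 12 columns of log2 RPKM and the authors' own fold changes, p-values and q-values. Counts of the 2 kidneys of each mouse were summed (48052131 to 60506785 reads a mouse), filtered with filterByExpr, scaled by TMM and tested with edgeR 4.0.16 (R 4.3.3), and adjusted by Benjamini-Hochberg over 19399 genes. The procedure was tested on simulated data. DESeq2 1.42.0, other scalings, single kidneys and leaving out each mouse were alternatives. Coordinates and exon overlaps are from GENCODE M21 (GRCm38), matched by Ensembl identifier, so they describe the genes and not the mm9 models that were counted. Approximate 95% intervals are the log2 fold change ± 1.96 SE of edgeR's fit. This SE holds counting noise as well as the spread between mice, and does not cover choices of processing. The multiplier 1.96 makes no allowance for the small number of mice, while edgeR's test does. The intervals are therefore narrower than true 95% intervals.

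The enzymes and lists were chosen with earlier results of these data known. The rule takes 10 enzymes, and 2 of them, with 1 gene of each of 2 lists, are not reported here and are in no count, sum or ratio. Named were the 8 others, the called genes of each list with its highest and lowest tested gene, and the 3 genes most like each called enzyme and the most abundant enzyme (pseudocount 0.5). Slc3a1 stands in 2 lists, and so does Cps1.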

Additional observations from a re-analysis of the deposited data

How the results depend on the processing

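The number of called enzymes stayed at 1 with each mouse left out (range 1 to 1), with DESeq2, upper-quartile scaling, no filter, an adjusted p of 0.05, each kidney as its own library and kidney 1 alone. It was 2 with library size alone (Nos3, 1.04), which moved the median of all genes to 0.13, 4 without a fold limit and 0 with kidney 2. The 4 enzymes past the adjusted p became 3 with either kidney alone, 3 to 4 with a mouse left out, and 5 with DESeq2, no filter, an adjusted p of 0.05 and each kidney as its own library. The sign of 2 enzymes with no difference turned. With a mouse left out Gatm ran from −0.059 to 0.061 and Odc1 from −0.081 to 0.037. Gatm was −0.018 without 43-49, −0.032 without 43-75, −0.059 without 43-76 and −0.019 with kidney 1, and Odc1 was −0.0034 without the filter, −0.0011 with the replicate block, −0.081 without 43-29, −0.031 without 43-76 and −0.011 with upper-quartile scaling and with DESeq2 (−0.011). The cause was not tested. With a mouse left out, the ratio differences lay between −0.34 and −0.27 (Ass1 to Asl), 0.46 and 0.59 (Gatm to Gamt) and −0.23 and −0.01 (Odc1 to Oat). All genes called fell from 773 to 499 without 43-76. The deposited table's name gives the mice as 3 pairs (29 with 26, 49 with 50 and 75 with 76) without saying what they share. The pairs' correlations were 0.34, 0.30 and −0.02, not all positive, so the pairing was kept as an alternative. The other combinations of a TG+ with a TG− mouse ran from −0.35 to 0.04, below the first 2 pairs. The replicate block left 1 enzyme called and 4 past the adjusted p.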
